A study of Homo sapiens with 6 samples.

Results

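A set of 8 genes of the cell death machinery was described here, namely CASP1, CASP2, CASP4, CASP6, CASP8, CASP9, CASP10 and APAF1, out of 58735 genes in the count table. The 8 members were found by their gene names. RNA was sequenced from MDA-MB-231, an established human triple-negative breast cancer cell line of wild-type genotype per the labels, after 24 h with vehicle (3 samples) or with SCH at 100 mg/l (3 samples). SCH is a water extract of the herb Salvia chinensis Benth, and the composition of the vehicle was not given in the sources used here. The labels give RPMI-1640 as the medium of both groups, whereas the methods of the study give DMEM. The samples of a group are biological repeats of 1 cell line per the series' design. The p-values thus weigh group differences against the spread between these samples, which the edgeR test moderates over all tested genes. Total counts per sample were 20291379, 18714240 and 18334857 with vehicle and 16836369, 17979434 and 18414924 with SCH.

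Caspases are cysteine proteases that are made as inactive precursors and cut their targets after aspartate. Initiator caspases are switched on when adaptor proteins bring them together. CASP9 is assembled on APAF1 after cytochrome c leaves the mitochondria, CASP8 and CASP10 are assembled through FADD at death receptors, and CASP2 is assembled through CRADD and PIDD1. Executioner caspases such as CASP6 then cut cell proteins, whereas CASP1 and CASP4 belong to the inflammatory branch. Activity rests on cleavage, which RNA sequencing does not measure.

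The labelled cell line was checked against lists of marker genes. The mesenchymal genes VIM, CD44, CAV1 and AXL were present in all 6 samples, with VIM at 177 to 269 FPKM (read fragments scaled by gene length and library depth) and CD44 at 94.4 to 101 FPKM. VIM, CAV1 and AXL were lower with SCH, with log2 fold changes of -0.56, -1.17 and -0.84, and CD44 had a value of 0.033 (adjusted p = 0.547, edgeR). The oestrogen receptor gene ESR1 had at most 4 counts in any sample, the progesterone receptor gene PGR at most 1 and the epithelial cadherin gene CDH1 at most 6. Of the same list, drawn up as genes absent or low in this line, the receptor gene ERBB2 was present at 6.44 to 8.86 FPKM and the epithelial gene EPCAM at 4.20 to 6.83 FPKM, with log2 fold changes of 0.29 and -0.52. Of 5 markers of other cell types, CD3E, CD68 and ALB had at most 3 counts in any sample, and the endothelial gene PECAM1 had 15 to 30. The count of CD68 is uncertain, since 85.8% of its exonic bases are shared with other genes. The leukocyte gene PTPRC had 39, 37 and 34 counts with vehicle and 4, 9 and 3 with SCH, and it was called as lowered. PECAM1 was the only other of the 5 markers to pass the filter on low counts, and it was not called (adjusted p = 0.702, edgeR). Summed over the 5 markers, the counts were 56, 66 and 57 with vehicle and 20, 34 and 37 with SCH, and their part in the values that follow was not tested.

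After SCH, the transcripts of CASP9, APAF1, CASP4, CASP10, CASP6 and CASP8 rose, that of CASP2 fell slightly, and CASP1 did not pass the test. The steps ran from 2.10-fold for CASP9 to 1.18-fold for CASP8. All 8 members passed the filter on low counts. In the edgeR quasi-likelihood test with Benjamini-Hochberg adjustment over 14736 tested genes and a threshold of 0.05, 6 members were raised and 1 was lowered, CASP2, whose call held in only 5 of 15 alternatives. Among the 6, CASP8 lost its call without vehicle replicate 2 (log2 fold change 0.16, adjusted p = 0.0785, edgeR). Changes were frequent in these cells, since 58.7% of all tested genes were called, 29.3% as raised and 29.4% as lowered. The median log2 fold change of the members was 0.37, and that of all tested genes was -0.0034. With scaling by library size only, the share of raised genes among all calls was 62.6%, in place of 49.9%, and the median of all genes was 0.099. In 7 of the 8 members the groups did not overlap in normalized CPM (counts scaled by library size after TMM normalization), 6 with SCH above vehicle and 1 below, and this held for 62.4% of all tested genes, 31.1% above and 31.3% below. An exact two-sided permutation test of each member alone gave 0.1 for these 7, the smallest p that 3 samples against 3 allow (0.114 adjusted over the 8 members).

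**Figure D1:**
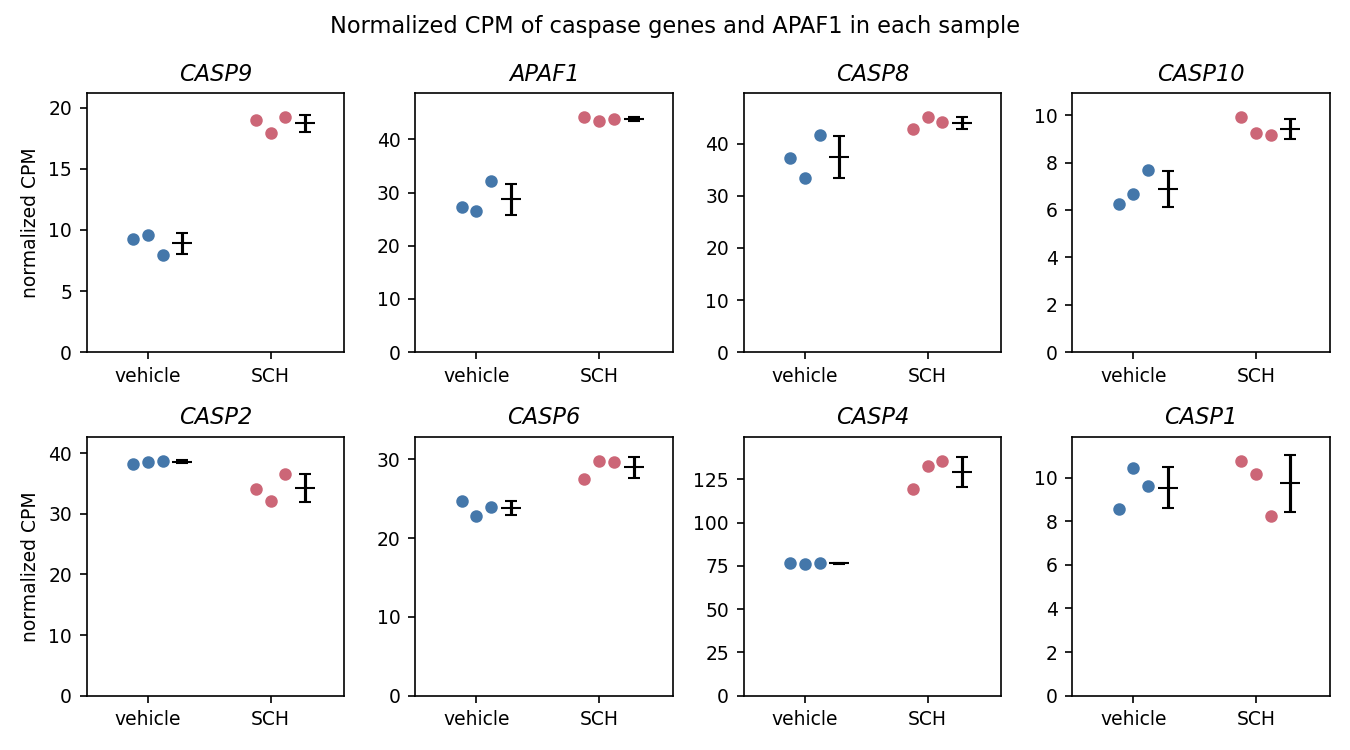
Normalized CPM of the 8 genes in each of the 3 vehicle samples (blue) and 3 SCH samples (red), with the mean and SD beside the points. Every vertical axis starts at 0. The groups stand apart in all panels but that of CASP1, where the SCH samples lie on both sides of the vehicle mean of 9.53.

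CASP9, the initiator protease of the mitochondrial pathway, had the largest fold change of the 8 genes. It lies on GRCh38 at chr1:15490832-15526534 on the minus strand (ENSG00000132906). Its promoter is shown because this member rose most. The stretch, from RefSeq (GRCh38.p14), covers chr1:15524890-15525040 on the minus strand, ends 99 bases before 1 of 2 listed starts and lies within the gene's span but in no annotated exon, with GC boxes (GGGCGG on either strand) and CCAAT boxes (either strand) in capitals.

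CASP9 promoter: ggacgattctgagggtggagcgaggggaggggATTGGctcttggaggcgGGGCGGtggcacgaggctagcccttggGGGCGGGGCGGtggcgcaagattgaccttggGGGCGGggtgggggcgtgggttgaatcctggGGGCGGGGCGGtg

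The stretch held 6 GC boxes and 1 CCAAT box, and GC boxes may overlap each other. Over the 250 bases before a start, both annotated CASP9 promoters held 8 GC boxes, and 42.6% of 35116 promoters in the RefSeq table held at least 1. Normalized CPM of CASP9 was 9.23, 9.58 and 7.93 with vehicle and 19.0, 17.9 and 19.2 with SCH. All SCH samples lay above all vehicle samples, and the spread within a group was small next to the gap. The mean went from 8.91 ± 0.870 to 18.7 ± 0.707 (SD, n = 3), a log2 fold change of 1.07 (SE 0.10, adjusted p = 3.48e-09, edgeR). Among the tested genes, 478 had a higher log2 fold change. Of its exonic bases, 2.01% are shared with CELA2B on the opposite strand, which had 1 count in 1 vehicle sample and 0 elsewhere.

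APAF1, the scaffold of the apoptosome on which CASP9 is activated, rose as well. The gene lies at chr12:98645141-98735433 on the plus strand (ENSG00000120868). Normalized CPM was 27.4, 26.6 and 32.1 with vehicle and 44.2, 43.4 and 43.9 with SCH. The SCH samples were close together and all above the highest vehicle sample, replicate 3. The group mean rose from 28.7 ± 2.97 to 43.8 ± 0.422 (SD, n = 3), a log2 fold change of 0.61 (SE 0.074, adjusted p = 1.96e-07, edgeR), or 1.53-fold. APAF1 shares 9.48% of its exonic bases with ANKS1B on the opposite strand, which had at most 20 counts in any sample against 478 to 835 for APAF1. Whether reads were counted by strand was not given in the sources used here. In bulk RNA, a change in the share of cells that express a gene and a change in its RNA per cell cannot be told apart.

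Of 6 other genes listed with the mitochondrial pathway, 3 were called as higher and 1 as lower, beside 29.3% and 29.4% of all tested genes. The median of their log2 fold changes was 0.15, and where their proteins lie in these cells was not measured. CYCS, which encodes cytochrome c, fell from 297 ± 10.2 to 239 ± 11.9 normalized CPM (log2 fold change -0.32, adjusted p = 8.93e-06, edgeR). HTRA2, a mitochondrial protease that binds inhibitors of caspases, rose by 0.43 on the log2 scale, and AIFM2, named for its likeness to apoptosis-inducing factor, rose by 0.42. ENDOG, a mitochondrial nuclease, rose by 0.32 (adjusted p = 0.0170, edgeR), a call that was lost without vehicle replicate 3 (0.20, adjusted p = 0.106) and with DESeq2 (0.33, adjusted p = 0.0523). AIFM1, the apoptosis-inducing factor, had a value of -0.12 (adjusted p = 0.0597, edgeR), which passed the threshold in 5 of 15 alternatives, among them without vehicle replicate 3 (-0.14, adjusted p = 0.0314) and with upper-quartile scaling (-0.16, adjusted p = 0.0193). DIABLO, an antagonist of caspase inhibitors, had a value of -0.022 (adjusted p = 0.931, edgeR). HTRA2 shares 36.9%, ENDOG 39.2% and DIABLO 30.4% of exonic bases with other genes, and DIABLO is listed under a pair of identifiers, so that these 3 values are uncertain.

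CASP8 and CASP10, the initiators of the death receptor pathway, stand next to each other on chromosome 2, and both rose by small steps. CASP8 lies at chr2:201233443-201287711 on the plus strand (ENSG00000064012). Its first promoter is shown as that of the member with the smallest rise, at chr2:201233213-201233442 on the plus strand (GRCh38.p14), with the single GC box in capitals.

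CASP8 promoter: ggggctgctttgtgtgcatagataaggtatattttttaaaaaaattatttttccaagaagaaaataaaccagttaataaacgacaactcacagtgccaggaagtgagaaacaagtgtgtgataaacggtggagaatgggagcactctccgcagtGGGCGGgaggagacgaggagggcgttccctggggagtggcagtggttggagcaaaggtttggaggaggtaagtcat

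The GC content of this stretch was 46.1%, against 72.2% in the CASP9 stretch. Over the 250 bases before each listed start, it was 77.6% and 71.6% for CASP9, 38% for CASP4 and 73.6% for APAF1. It was 74% for CASP6, 45.6%, 42.8% and 55.6% for CASP8, and 71.2% and 44% for CASP2. A link between GC content and the change with SCH was not tested. Normalized CPM of CASP8 was 37.3, 33.4 and 41.6 with vehicle and 42.8, 45.1 and 44.1 with SCH. The groups did not overlap, but the highest vehicle sample, replicate 3, lay just under the lowest SCH sample. With SCH the mean was higher, going from 37.4 ± 4.10 to 44.0 ± 1.16 (SD, n = 3), a log2 fold change of 0.23 (SE 0.074, adjusted p = 0.00946, edgeR). Without vehicle replicate 2, the lowest of the 6, the value was 0.16 and the call was lost (adjusted p = 0.0785). Over all alternatives the adjusted p ranged from 0.000535 to 0.0785.

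CASP10 lies at chr2:201182881-201229406 on the plus strand (ENSG00000003400). Its normalized CPM was 6.25, 6.68 and 7.70 with vehicle and 9.92, 9.23 and 9.15 with SCH. All SCH samples lay above the vehicle samples. The mean went from 6.88 ± 0.744 to 9.43 ± 0.422 (SD, n = 3), a log2 fold change of 0.46 (SE 0.12, adjusted p = 0.00276, edgeR). On log2(FPKM + 1) with limma the value was 0.24 (adjusted p = 0.0098). The stretch of chromosome 2 from CFLAR to CASP8 holds 11 annotated genes, of which the filter kept only CFLAR, CASP10 and CASP8, and all 3 were raised, beside 29.3% of all tested genes, with the call of CASP8 lost without vehicle replicate 2 (0.16, adjusted p = 0.0785).

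Among the 7 genes of the platform that recruits caspase-8 and caspase-10, 6 were tested, 3 were raised and 2 were lowered, beside 29.3% and 29.4% of all tested genes. RIPK1, a kinase at the branch between survival and death signalling, rose from 56.8 ± 2.77 to 92.9 ± 1.53 normalized CPM (log2 fold change 0.71, adjusted p = 2.43e-10, edgeR). The adaptor TRADD rose by 0.50 and CFLAR, which encodes the caspase-8 decoy c-FLIP, by 0.38. The adaptor FADD fell by 0.27, but 54.9% of its exonic bases are shared with an antisense gene, so that its value is uncertain. RIPK3, the kinase of necroptosis, had 0 counts in all 6 samples.

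CASP2, an initiator with a caspase recruitment domain, was the single member that fell. The gene lies at chr7:143288215-143307696 on the plus strand (ENSG00000106144). The first of its 2 listed promoters is shown beside that of CASP9, at chr7:143288101-143288214 on the plus strand (GRCh38.p14), with GC and CCAAT boxes in capitals.

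CASP2 promoter: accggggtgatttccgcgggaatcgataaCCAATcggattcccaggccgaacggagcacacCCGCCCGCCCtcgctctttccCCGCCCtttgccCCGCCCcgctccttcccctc

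The CASP2 stretch held 4 GC boxes and 1 CCAAT box, and the second listed CASP2 promoter, at chr7:143289338-143289587, held 0 GC boxes. Normalized CPM of CASP2 was 38.3, 38.6 and 38.8 with vehicle and 34.1, 32.0 and 36.6 with SCH. The vehicle samples were nearly equal, and the SCH samples were more scattered and all lower. Its mean went from 38.6 ± 0.253 to 34.3 ± 2.28 (SD, n = 3), a log2 fold change of -0.17 (SE 0.069, adjusted p = 0.0373, edgeR), with a 95% interval from -0.31 to -0.028. With scaling by library size only the value was -0.068 (adjusted p = 0.413), and with DESeq2 it was -0.16 (adjusted p = 0.138). It was also lost when any vehicle replicate (-0.17 to -0.16), SCH replicate 1 (-0.16) or SCH replicate 2 (-0.12) was left out.

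The partners of CASP2 moved in opposite directions and further. PIDD1, the scaffold of the PIDDosome, had 34.3, 38.9 and 33.6 normalized CPM with vehicle and 64.6, 62.2 and 54.6 with SCH, a log2 fold change of 0.76 (SE 0.074, adjusted p = 5.74e-09, edgeR). CRADD, the adaptor between PIDD1 and CASP2, had 22.3, 23.2 and 24.5 with vehicle and 10.8, 9.50 and 9.73 with SCH, a log2 fold change of -1.22 (SE 0.093, adjusted p = 9.25e-11, edgeR). Neither pair of groups overlapped, which also held for 62.4% of all tested genes, and 58.7% of them were called. The ratio of PIDD1 to CRADD in CPM went from 1.53 ± 0.155 to 6.05 ± 0.471 (SD, n = 3), 3.95 times the vehicle value, with an exact permutation p of 0.1, the smallest possible (0.117 adjusted over 7 ratios). The 7 ratios were chosen after the values were seen, so that their p-values and lack of overlap cannot serve as a test. That of CASP8 to CFLAR went from 0.917 ± 0.133 to 0.827 ± 0.0355 (SD, n = 3) with overlapping groups (exact permutation p = 0.4, also 0.4 adjusted), and in the other 6 the groups did not overlap.

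CASP6, an executioner that cuts nuclear lamins, rose modestly. It lies at chr4:109688622-109703583 on the minus strand (ENSG00000138794). Normalized CPM was 24.7, 22.8 and 23.9 with vehicle and 27.5, 29.8 and 29.6 with SCH. Every SCH sample lay above every vehicle sample. The gene rose from 23.8 ± 0.914 to 29.0 ± 1.31 on average (SD, n = 3), a log2 fold change of 0.28 (SE 0.075, adjusted p = 0.00248, edgeR). It shares 5.4% of exonic bases with MCUB on the opposite strand, whose log2 fold change was -0.018 (adjusted p = 0.819, edgeR). The caspase genes CASP5, CASP12 and CASP14 had 0 counts in all samples.

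CASP4, the caspase that senses bacterial lipopolysaccharide inside the cell, was second to CASP9 in fold change and had the smallest p of the 8 genes. It lies at chr11:104942866-104969436 on the minus strand (ENSG00000196954). Normalized CPM was 76.6, 76.1 and 76.6 with vehicle and 119, 133 and 136 with SCH. The vehicle samples were almost identical, and the SCH samples were all far above them. On average the level went from 76.5 ± 0.285 to 129 ± 8.73 (SD, n = 3), a log2 fold change of 0.76 (SE 0.057, adjusted p = 7.04e-11, edgeR), or 1.69-fold.

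CASP1, the inflammasome protease that matures interleukin-1β and interleukin-18, lies in the same cluster at chr11:105025443-105035250 on the minus strand (ENSG00000137752). Normalized CPM was 8.56, 10.4 and 9.62 with vehicle and 10.8, 10.1 and 8.25 with SCH. The groups overlapped, and SCH samples were both the highest and the lowest of the 6. The means were 9.53 ± 0.930 and 9.73 ± 1.31 (SD, n = 3), a log2 fold change of 0.029 (SE 0.12, adjusted p = 0.858, edgeR), and its sign turned when vehicle replicate 1 (-0.040) or SCH replicate 1 (-0.044) was left out and with upper-quartile scaling (-0.0038). The 95% interval ran from -0.23 to 0.28, so that with these samples an unchanged level cannot be told from a rise of up to 1.22-fold or a fall to 0.855 of the vehicle level. The exact two-sided permutation test gave p = 0.8. The ratio of CASP4 to CASP1 in CPM, also chosen after the values were seen, went from 8.08 ± 0.826 to 13.5 ± 2.71 (SD, n = 3, exact permutation p = 0.1, 0.117 adjusted over 7 ratios). From CASP12 to CARD18 this cluster holds 14 annotated genes, of which 10 had no count in any sample. CARD16, which resembles the start of CASP1 in sequence and could share reads with it, rose by 0.52 on the log2 scale (adjusted p = 0.00408, edgeR).

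**Figure D2:**
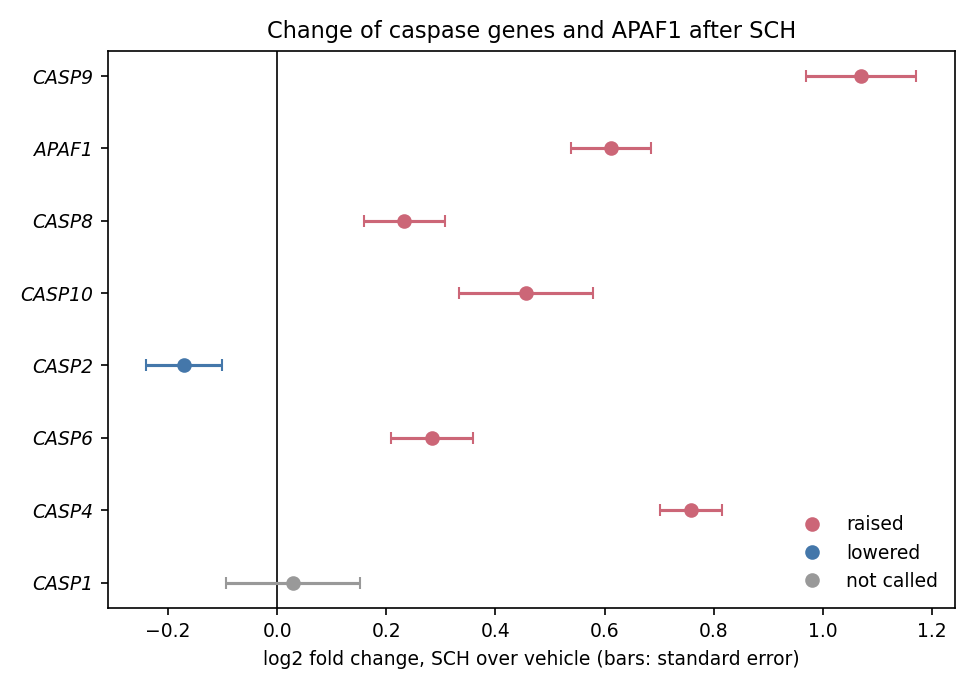
Log2 fold change of SCH over vehicle from the edgeR fit for the 8 genes, with bars of 1 standard error. CASP9 lies furthest to the right at 1.07, CASP1 lies at 0.029 with bars across 0, and CASP2 is the only gene left of 0.

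Levels between genes were compared per gene length, in FPKM. That length joins all annotated exons of a gene, 7256 bases for CASP4 and 1943 for CASP6. It need not be the length of the transcripts present, so the order below and its reversals depend on it. Raw counts with vehicle were 1495, 1367 and 1363 for CASP4 and 481, 410 and 425 for CASP6. With vehicle, CASP6 had the highest mean of the 8 genes (11.8 FPKM), followed by CASP4 (10.2), CASP8 (5.00), CASP2 (4.65), APAF1 (3.51), CASP1 (2.49), CASP9 (1.64) and CASP10 (0.875). Only CASP8 and CASP2 overlapped in their ranges as neighbours in that order. With SCH the order of mean FPKM was CASP4 (17.3), CASP6 (14.5), CASP8 (5.90), APAF1 (5.38), CASP2 (4.15), CASP9 (3.45), CASP1 (2.56) and CASP10 (1.21), and no neighbours overlapped. CASP4 thus stood above CASP6, APAF1 above CASP2, and CASP9 above CASP1, each the reverse of the order with vehicle.

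**Figure D3:**
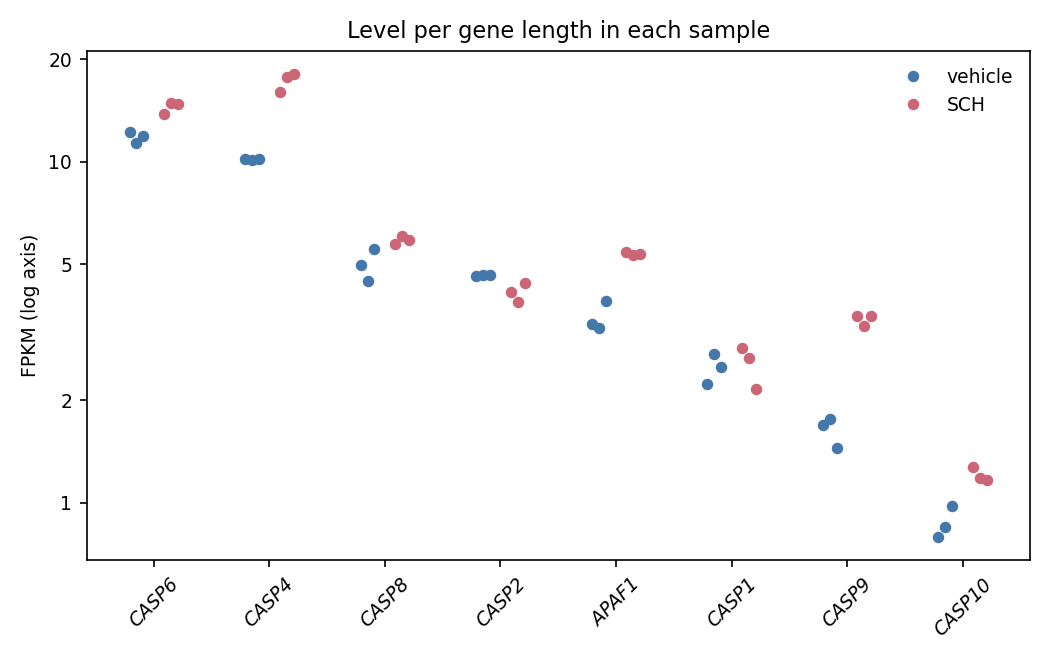
FPKM on a log axis of the 8 genes in each vehicle sample (blue) and SCH sample (red), ordered by the vehicle mean. The red points of CASP4 (mean 17.3) lie above those of CASP6 (mean 14.5), whereas the blue points lie below.

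The summed FPKM of the 7 caspase genes among the members was 36.8, 36.0 and 37.2 with vehicle and 47.4, 49.8 and 50.0 with SCH, means of 36.7 ± 0.647 and 49.0 ± 1.47 (SD, n = 3). CASP4 went from 27.8% ± 0.415 to 35.3% ± 1.23 of the sum and CASP9 from 4.46% ± 0.508 to 7.05% ± 0.399. The shares of CASP2 and CASP1 went from 12.7% ± 0.229 to 8.46% ± 0.576 and from 6.80% ± 0.748 to 5.22% ± 0.848. CASP6 held 32.3% ± 0.930 with vehicle and 29.5% ± 0.440 with SCH. Its share was lower although its mean rose from 11.8 to 14.5 FPKM, because the sum rose more. CASP1 likewise had a lower share without being called. The sum and the shares depend on the gene lengths, as the order of levels does.

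The genes that surround the caspases were taken from 6 lists of 48 genes. Of the 41 that were tested, 18 were raised and 13 were lowered, 75.6% in all beside 58.7% of all tested genes. Among inhibitors of apoptosis (IAP), which bind caspases or their partners, 2 of 5 tested genes were raised and 1 was lowered, beside 29.3% and 29.4% of all tested genes. BIRC3, which encodes a ubiquitin ligase of the tumour necrosis factor receptor complex, had 86.9, 82.8 and 90.4 normalized CPM with vehicle and 187, 192 and 188 with SCH (log2 fold change 1.12, adjusted p = 1.75e-14, edgeR). BIRC5, which encodes survivin, a protein of dividing cells, had 175, 172 and 172 with vehicle and 82.4, 93.0 and 86.0 with SCH (log2 fold change -0.99, adjusted p = 3.10e-13, edgeR). Both pairs of groups lay far apart, in opposite directions. BIRC2, a close relative of BIRC3, rose by 0.17 (adjusted p = 0.0124, edgeR), a call lost without vehicle replicate 1 (0.15, adjusted p = 0.0601) or vehicle replicate 2 (0.12, adjusted p = 0.0858). XIAP, a direct inhibitor of caspases such as CASP9, had a value of 0.052 (adjusted p = 0.529, edgeR), and BIRC6, a large ubiquitin ligase, one of -0.032 (adjusted p = 0.686, edgeR). The sign turned for XIAP without vehicle replicate 2 (-0.022), and for BIRC6 without vehicle replicate 3 (0.035), without SCH replicate 3 (0.020) and with library size only (0.070).

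In the inflammasome list, 6 of 10 tested genes were raised and none was lowered, beside 29.3% and 29.4% of all tested genes, and 5 further genes were below the filter. The cytokine genes IL1B and IL18 rose by 0.72 (adjusted p = 1.65e-07) and 0.56 (adjusted p = 9.42e-08) on the log2 scale in the edgeR test. NINJ1, which ruptures the plasma membrane in dying cells, rose by 0.49, and the DNA sensor AIM2 rose by 0.72 from a low level of 2.74 ± 0.338 normalized CPM (SD, n = 3). PYCARD, the adaptor between most inflammasome sensors and CASP1, had at most 6 counts in any sample, but 59.7% of its exonic bases are shared with an antisense gene, so that its level is uncertain.

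The list of caspase substrates, which also holds the nuclease DFFB freed by such a cut, had 3 of 12 genes raised and 8 lowered, beside 29.3% and 29.4% of all tested genes. Their median log2 fold change was -0.25. The lamin genes LMNB1, LMNB2 and LMNA, which encode the fibres under the nuclear envelope, had log2 fold changes of -1.01, -0.81 and -0.595 and were all lowered. GSN, which encodes the actin-severing protein gelsolin, rose by 1.51 (adjusted p = 3.86e-15, edgeR). Outside the rule for named genes and chosen after its values were seen, DFFB, the nuclease that cuts DNA once caspases remove its inhibitor, had 6.82, 5.96 and 4.55 normalized CPM with vehicle and 1.83, 1.61 and 2.37 with SCH (log2 fold change -1.57, adjusted p = 4.03e-07, edgeR). Its inhibitor DFFA, chosen in the same way, had a value of -0.27.

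**Figure D4:**
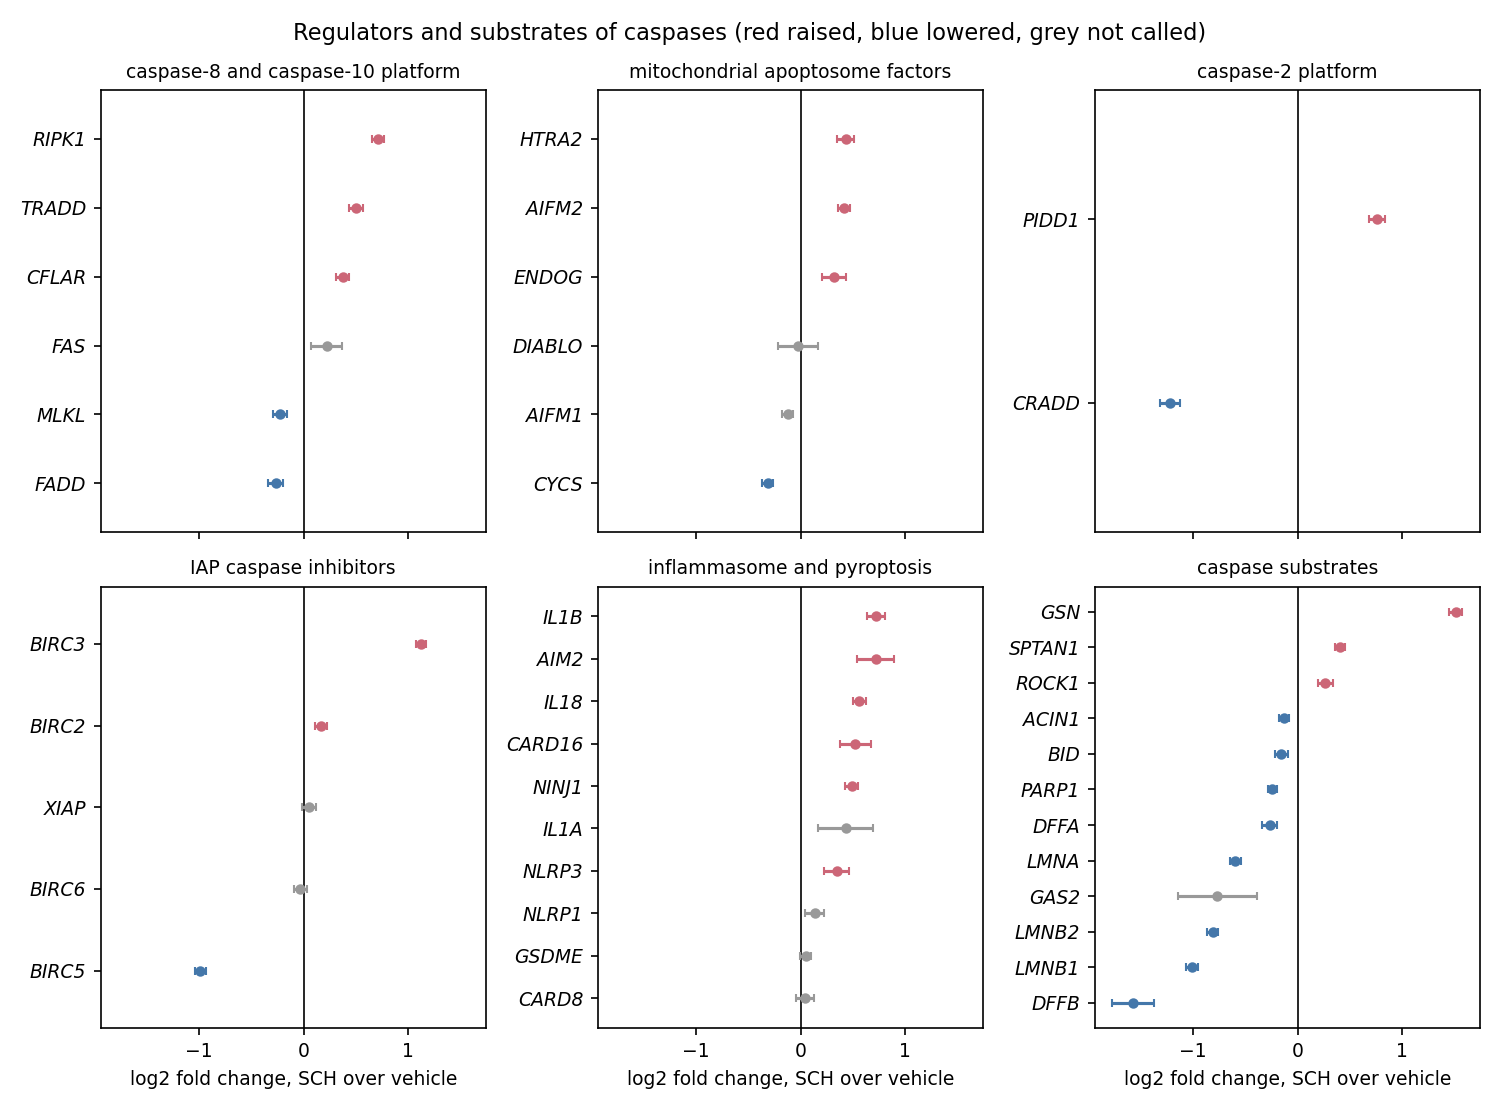
Log2 fold change of SCH over vehicle for the tested regulators and substrates of caspases in 6 lists, with bars of 1 standard error. PIDD1 at 0.76 and CRADD at -1.22 lie on opposite sides of 0, as do BIRC3 at 1.12 and BIRC5 at -0.99.

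The genes whose pattern over the 6 samples was most like that of a member were sought for CASP4 and CASP2, by Pearson's r of log2 CPM among 10706 genes, with the 6 samples falling into 2 groups and sharing their libraries. For CASP4 they were CHMP5 (r = 0.9994), a subunit of the membrane-cutting complex ESCRT-III, PLBD2 (0.9991) and FTL (0.999), the light chain of ferritin, and 1418 genes exceeded the round value of 0.95. For CASP2, PEX14 (0.990) and MCAT (0.988) were among the 3 most alike, and 41 genes exceeded 0.95. Among the members themselves, r of CASP2 with each of the others lay between -0.817 and -0.384, r of CASP1 with each of the others lay between -0.384 and 0.254, and the highest r, 0.977, was that of CASP10 and APAF1.

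Of the 8 members, 6 matched the RefSeq promoter table, with 10 promoters of 250 bases before the start. Some of these belong to the same gene, so the 10 are not independent. Annotated exons covered all 250 bases of the CASP4 promoter, 230 and 38 of the CASP9 promoters, 223 of that of APAF1 and 0 of the second CASP2 promoter. GC boxes were found in 7 of these 10, beside 42.6% of 35116 promoters, and CCAAT boxes in 5, beside 32% of all. TATAAA was found in 1 (10.7% of all), the AP-1 motif TGANTCA in 1 (6.57% of all) and a motif of interferon regulatory factors in 0 (3.02% of all), each searched on both strands. These are matches of letters and not measured binding.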

How the data were processed

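RNA of 3 vehicle and 3 SCH samples was sequenced from poly-T purified mRNA. The authors deposited raw counts per gene and FPKM values per sample. The submitters' processing notes name CASAVA 1.8, HISAT2 2.0.5, featureCounts 1.5.0-p3, DESeq2 1.20.0 and GRCh38. The annotation was not given in the sources used here, but all 58735 identifiers had the same start and end as in GENCODE 29. Deposited FPKM was proportional to count over gene length.

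The counts were tested with edgeR 4.0.16 under R 4.3.3 (TMM, filterByExpr, quasi-likelihood fit and test, no covariates), which kept 14736 genes, with Benjamini-Hochberg adjustment at 0.05. A floor of 3 counts equals 0.148 to 0.178 CPM and covers counting error only. Alternatives were other scalings, other filters, DESeq2 1.42.0, limma 3.58.1 on log2(FPKM + 1) and log2(FPKM + 0.1), a threshold of 0.01, a replicate block and leaving out each sample. Single genes and ratios were compared by exact permutation.

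Members and lists were chosen with earlier results of these data known. Named genes were all members, from each list up to 4 called genes with the smallest p, all genes of lists of 6 or fewer by log2 fold change, and the 3 genes most like a risen and a fallen member (mean count of at least 100). CARD16, RIPK3, PYCARD, DFFB and DFFA were named outside this rule, as were marker genes, genes with shared exonic bases and caspases without counts. Some genes that this rule or the lists covered are not reported here. On simulated data of 14577 genes, 85.6% of 194 changed genes were recovered (71.8% at a log2 change of 0.5, 88.7% at 1, 98.4% at 2), with 4.6% false calls. That setting differs from the data, where 58.7% of tested genes were called. It held no change smaller than 0.5, so it does not cover changes as small as those of CASP2, CASP8, CASP6 and CASP10. Tables were made with Python 3.11.15.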

Additional observations from a re-analysis of the deposited data

How the results depend on the processing

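The call and direction of CASP9, APAF1, CASP4, CASP10 and CASP6 held in all 15 alternatives run for each, as did those of 23 of 29 genes of the regulator and substrate lists, 4 of them chosen after their values were seen. Sizes changed in some settings. With limma on log2(FPKM + 1), CASP10 had 0.24, DFFB -0.71 and AIM2 0.46, in place of 0.46, -1.57 and 0.72. With library size only, FADD had -0.16, DFFA -0.16 and BIRC2 0.27, in place of -0.27, -0.27 and 0.17. AIFM1 had -0.021 and XIAP 0.15 in that setting, in place of -0.12 and 0.052. The genes most like CASP4 and CASP2 were not run under the alternatives. The number of genes called ranged from 7026 (threshold of 0.01) to 8814 (library size only, 5519 raised and 3295 lowered, in place of 4318 and 4332), and from 7809 to 8489 when 1 sample was left out. CASP2 lost its call with DESeq2 (-0.16), library size only (-0.068), limma on log2(FPKM + 0.1) (-0.16) and on log2(FPKM + 1) (-0.14) and no filter on low counts (-0.15), and its value ranged from -0.21 to -0.12 when 1 sample was left out. In these 5 settings and at a threshold of 0.01, 0 members were lowered and 2 were not called. With 1 sample left out, 5 to 6 members were raised, 0 to 1 were lowered and 1 to 3 were not called. The value of CASP8 then ranged from 0.16 to 0.32 and that of CASP1 from -0.044 to 0.15, and CASP1 turned to -0.0038 with upper-quartile scaling. Signs also turned for BIRC6 (0.070) and DIABLO (0.081) with library size only, and with 1 sample left out their values ran from -0.062 to 0.035 and from -0.11 to 0.094, and those of XIAP from -0.022 to 0.11. The call of ENDOG was lost with DESeq2 (0.33), and AIFM1 passed the threshold with upper-quartile scaling (-0.16), limma on log2(FPKM + 0.1) (-0.12) and log2(FPKM + 1) (-0.11) and at least 10 counts in every sample (-0.13). The cause was not tested.

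Both groups use the same replicate numbers. Same-numbered deviations from the group means correlated at 0.138, -0.0541 and 0.118 over 10714 genes, and 4 of the 6 samples correlated best with another number. With 3 samples per group, these values cannot decide whether same-numbered samples were handled together. With the replicate number as a block, 8705 genes were called in place of 8650, 6 members were raised and 1 was lowered, and no call of the 8 members or of these 29 genes changed. CASP10, CASP9 and CASP1 had as few as 120, 141 and 157 counts in a sample and the largest standard errors of the members, 0.12, 0.10 and 0.12.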
